A study of Homo sapiens with 4 samples.

Results

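The mRNAs of the mitogen-activated protein (MAP) kinase cascade and of the dual-specificity phosphatases (DUSPs) were examined for peaks of N7-methylguanosine (m7G) antibody enrichment in U2OS cells, an established human osteosarcoma line. Members were the peaks whose gene name begins with MAPK, MAP2K, MAP3K, MAP4K or DUSP followed by a digit. They made up 28 of the 4326 peaks of IP replicate 1 and 30 of the 4862 peaks of IP replicate 2, on 23 genes in each replicate. The RefSeq gene table lists 73 protein-coding genes with such symbols among 20056, and a gene without a peak counted as having none. An antibody against m7G was used to pull down poly(A) RNA of untreated cells, giving 2 immunoprecipitated (IP) and 2 input libraries. The labels name no genetic change and no treatment for either group, and the input is RNA not passed over the antibody. Nothing in the labels places the replicates in separate cultures, so their spread may be technical. Each peak has a position on GRCh38, a p-value, a false discovery rate and a linear fold enrichment of IP over input (called fold below), all of them the authors' own values. The tables give no read counts, which leaves the depth behind a peak unknown, and positions in exons, introns or UTRs were not analysed here.

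MAP kinase cascades pass a signal from the membrane to the nucleus through tiers of kinases. A MAP4K can activate a MAP3K, which phosphorylates a MAP2K, which in turn phosphorylates a MAP kinase on a threonine and a tyrosine of its activation loop. The main outputs are ERK in growth factor signalling, JNK and p38 in stress and cytokine signalling, and ERK5. Typical DUSPs, the MAP kinase phosphatases, remove both phosphates and so switch the kinases off, and many of them are themselves induced by the pathway. The cap at the 5′ end of an mRNA is itself an m7G, and the labels mention no removal of the cap, so positions relative to the annotated gene start are given throughout.

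Of the 73 genes, 14 (19.2%, Wilson 95% interval 11.8 to 29.7) had overlapping peaks in the replicates (a shared peak, with at least 1 nt in common on the same strand). Over all protein-coding genes that share was 10.5%. Peaks in either replicate were present on 30 of the 73 (41.1%), against 21.6% of all protein-coding genes. In single replicates the counts were 23 of 73 in replicate 1, against 15.9% of all protein-coding genes, and 23 of 73 in replicate 2, against 17.4%. Among genes with any peak, 46.7% of the members and 48.4% of all genes had it at the same place, so reproducibility was near that of the whole tables. Of the 14 genes with a shared peak, only MAP3K9 had more than 1, against 19.6% of all such genes. Intervals cover counting error only. A peak needs the mRNA to be present, mRNA levels were not analysed here, and their part in these counts was not tested.

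Of the bone and mesenchymal markers, 7 of 12 carried a shared peak, among them COL1A1, SPARC and VIM. Markers without any peak included RUNX2, ALPL, BGLAP and SP7. A shared peak lay on 0 of 5 haematopoietic, 0 of 4 hepatocyte, 2 of 5 epithelial (KRT18 and CLDN4) and 1 of 4 neuronal markers (NEFL). In replicate 2 alone, 1 hepatocyte marker had a peak. Over all protein-coding genes, 10.5% had a shared peak. The marker lists were chosen with earlier results of these data known, and differences between them were not tested.

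The annotated gene start itself was covered by peaks of 6 member genes, and the sequence there is shown because it holds the annotated 5′ end of the transcript. Each window runs from 100 nt before to 30 nt after the start listed in the RefSeq promoter table of GRCh38.p14, 5′ to 3′, with capitals for the bases inside a peak of either replicate. The windows are chr16:30123191-30123320, minus strand, for MAPK3, and chr22:50261654-50261783, minus strand, for MAPK12. They are chr19:7903777-7903906, plus strand, for MAP2K7 and chr11:65614192-65614321, minus strand, for MAP3K11. For the phosphatases they are chr5:172771166-172771295, minus strand, for DUSP1 and chr2:96145411-96145540, minus strand, for DUSP2.
MAPK3: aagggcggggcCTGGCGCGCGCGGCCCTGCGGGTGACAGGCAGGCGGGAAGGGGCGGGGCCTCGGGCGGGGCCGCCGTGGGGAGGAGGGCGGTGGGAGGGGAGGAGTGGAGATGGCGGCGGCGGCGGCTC
MAPK12: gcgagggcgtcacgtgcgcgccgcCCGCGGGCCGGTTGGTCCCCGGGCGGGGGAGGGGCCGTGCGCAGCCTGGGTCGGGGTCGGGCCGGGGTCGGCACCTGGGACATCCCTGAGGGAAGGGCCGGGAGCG
MAP2K7: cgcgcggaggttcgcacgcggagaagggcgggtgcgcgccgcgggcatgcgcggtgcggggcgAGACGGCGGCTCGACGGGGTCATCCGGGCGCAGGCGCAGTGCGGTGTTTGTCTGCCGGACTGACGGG
MAP3K11: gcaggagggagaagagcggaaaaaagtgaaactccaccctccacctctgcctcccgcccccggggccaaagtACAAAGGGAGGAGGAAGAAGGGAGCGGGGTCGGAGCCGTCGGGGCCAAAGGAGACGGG
DUSP1: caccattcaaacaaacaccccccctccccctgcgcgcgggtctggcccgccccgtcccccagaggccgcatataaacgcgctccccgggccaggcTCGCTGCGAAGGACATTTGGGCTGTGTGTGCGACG
DUSP2: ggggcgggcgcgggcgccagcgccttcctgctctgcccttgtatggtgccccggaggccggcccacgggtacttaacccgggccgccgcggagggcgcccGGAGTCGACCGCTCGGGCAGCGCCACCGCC

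In MAPK3 and MAPK12 the peak reached beyond the annotated start in both replicates. It began 59 nt before the MAPK3 start in replicate 1 and 89 nt before it in replicate 2. For MAPK12 it began 76 nt and 46 nt before the start. The peaks of MAP2K7 (replicate 2, from 37 nt before the start), MAP3K11 (replicate 1, from 28 nt), DUSP1 (replicate 2, from 5 nt) and DUSP2 (replicate 1, from the first transcribed base) covered the start in a single replicate. In each table, 4 member peaks covered the annotated start, 4 of 28 in replicate 1 and 4 of 30 in replicate 2, against 9.68% and 9.23% of all peaks. Among shared peaks these were MAPK3 and MAPK12, 2 of 15, against 12.1% of all.

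**Figure D1:**
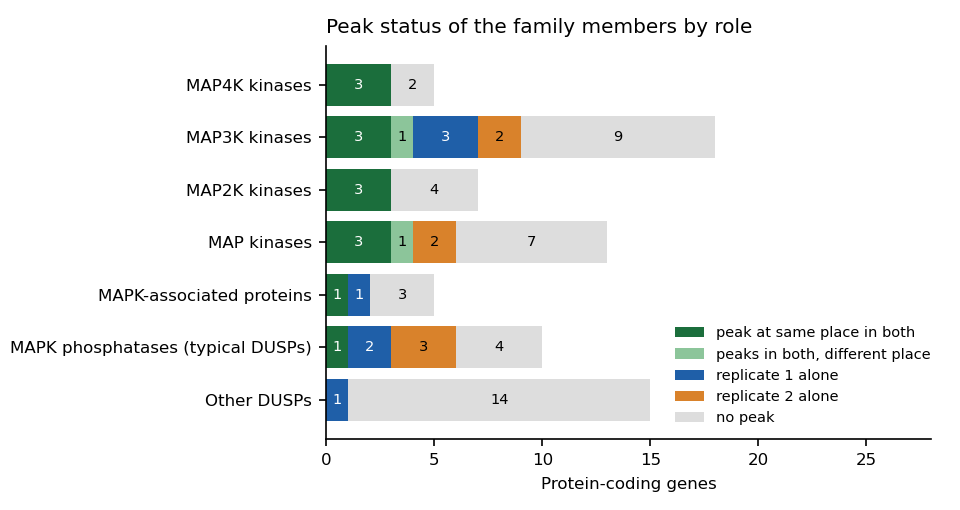
Horizontal bars count the 73 protein-coding genes by role (x axis, number of genes) and by peak status in the 2 IP replicates. Every role except the other DUSPs has at least 1 gene with a shared peak, and 14 of the 15 other DUSPs have no peak.

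Shared peaks fell on every tier of the kinase cascade, with 3 of 5 MAP4K genes, 3 of 18 MAP3K genes, 3 of 7 MAP2K genes and 3 of 13 MAP kinase genes. They fell on 1 of 5 MAPK-associated proteins, 1 of 10 typical DUSPs and 0 of 15 other DUSPs. Beside these counts, 10.5% of all protein-coding genes had a shared peak. Differences between these small groups, or from that share, were not tested. By pathway branch, MAP2K1, MAP2K2 and MAPK3 of the ERK branch each had a shared peak. The JNK module had shared peaks on 1 of 5 genes, the p38 module on 1 of 6 and the ERK5 module on 1 of 2. The atypical kinases MAPK4, MAPK6 and MAPK15 had no peak, nor did MAPK8, which encodes JNK1, or MAPK14, which encodes p38 alpha.

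At the top of the cascade, MAP4K3, a kinase that also acts in amino acid signalling to mTORC1, had 8.88-fold enrichment in replicate 1 and 5.33-fold in replicate 2. The peaks lay at chr2:39437073-39437222 and chr2:39437014-39437133, minus strand, with midpoints 138 and 212 nt from the annotated start, and shared 61 nt. MAP4K4, a kinase of JNK signalling and cell migration, had low folds of 2.09 and 2.06 at a peak of 2 blocks in both replicates, far inside the gene at 158368 and 158338 nt from the start. It also had a peak near the start in replicate 1 alone (3.43-fold, 116 nt) and a peak of 6.25-fold in replicate 2 alone, 2819 nt from the annotated gene end. MAP4K5 had 3.82 and 4.76, but its replicate 1 peak (chr14:50531981-50532130) and its replicate 2 peak shared only 1 nt. The replicate 2 peak had 2 blocks and reached to the second base of the transcript whose start, inside the gene, the RefSeq promoter table lists. Its midpoint lay 76 nt from that start, and that of replicate 1 lay 514 nt from it. MAP4K1 and MAP4K2 had no peak.

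Among MAP3Ks, the highest fold seen in both replicates was on MAP3K9, a mixed-lineage kinase upstream of JNK. It had 18.5 in replicate 1 and 12.3 in replicate 2 at chr14:70808931-70809171, minus strand, with the same ends in both tables and its midpoint 462 nt from the annotated start. The span of MAP3K9-DT, a long noncoding RNA and by its name a divergent transcript, also overlaps this peak. The strand of MAP3K9-DT is not listed in the gene annotation used. A second MAP3K9 peak, of 2 blocks, reached 6.17 and 4.29 at 71207 and 71222 nt from the annotated gene start. The nearest MAP3K9 start in the RefSeq promoter table lay 45146 and 45161 nt from it. MAP3K3, an activator of the ERK5 and p38 branches, had 9.77 and 9.05 at chr17:63622441-63622711 and chr17:63622441-63622681, plus strand. That peak opened at base 25 of the gene in both replicates and so did not cover the start. MAP3K11, another mixed-lineage kinase, had 3.90 and 4.93 at 612 nt from the start in both replicates. A further MAP3K11 peak of replicate 2 (2.41-fold) touched the replicate 1 peak by 1 nt, and single-replicate peaks lay over its start (3.08-fold, replicate 1) and 191 nt from its annotated end (2.57-fold, replicate 2).

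The other MAP3Ks had no shared peak. MAP3K6, which encodes ASK2, had 4.96 in replicate 1 and 9.29 in replicate 2, at places 5451 nt apart. MAP3K1, an activator of the JNK and ERK branches, had 6-fold enrichment in replicate 1 alone, with 2 blocks of which the first lay 452 nt from the start. MAP3K12, the neuronal DLK kinase, had peaks of 2.94 and 2.64 in replicate 2 alone, 3032 and 3316 nt from its annotated end. MAP3K4, an activator of p38 and JNK, had 2.44 in replicate 2 alone, at a peak of 2 blocks. The range from its first block to its last overlaps the span of MAP3K4-AS1, by its name an antisense RNA. The highest member folds of replicate 1 were on MAP3K13 (55.5) and MAP3K10 (37), which had no peak in replicate 2. The MAP3K10 peak ended at the last annotated base of the gene. Their log10 p was -3.37 and -4.13, and 96.8% and 79.1% of that table's peaks were more significant. Both folds are whole multiples, 3 and 2, of 18.5, the most frequent fold of at least 10 in that table, and the replicate 1 fold of the first MAP3K9 peak is 18.5 itself. Of the 253 replicate 1 peaks at or above 18.5, 134 (53.0%) were such multiples within 0.05 (0.5 from a fold of 100). No peak was present on 9 MAP3K genes, among them MAP3K7, which encodes TAK1, and MAP3K5, which encodes ASK1.

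**Figure D2:**
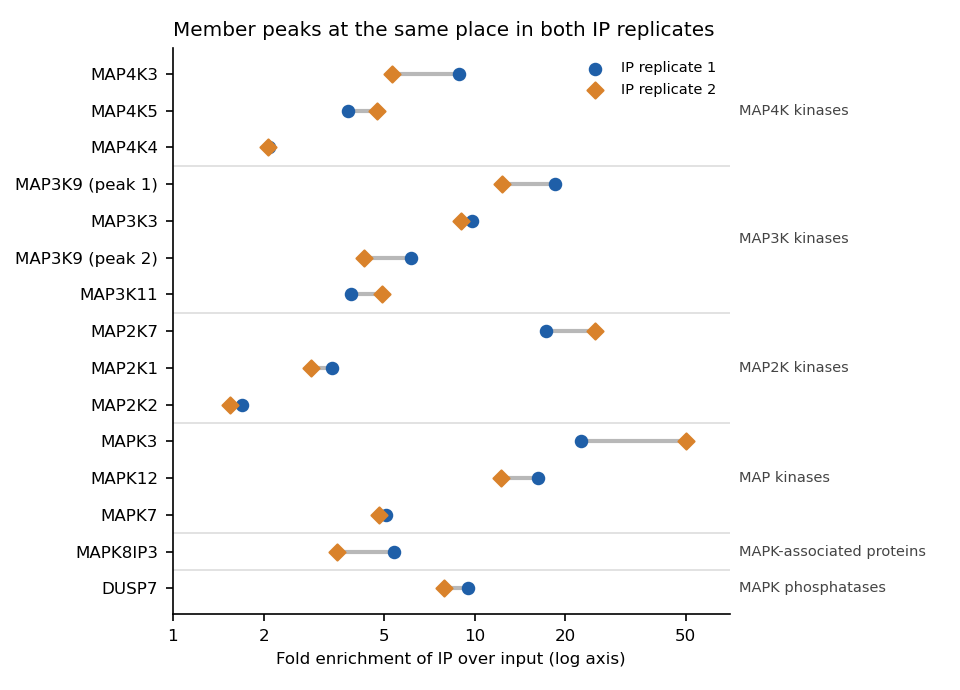
Points give the fold enrichment of IP over input (x axis, log scale) in IP replicate 1 (circles) and IP replicate 2 (diamonds) for the 15 member peaks found at the same place in both, grouped by role and ordered by the lower fold. MAPK3, MAP2K7, MAPK12 and the first MAP3K9 peak exceed 10-fold in both replicates, and MAP2K2 and MAP4K4 lie lowest.

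MAP2K7, the kinase dedicated to JNK, had the second highest shared fold of the family. It had 17.3 in replicate 1 (chr19:7913288-7913677, plus strand) and 25 in replicate 2 (chr19:7913199-7913677). The midpoint lay 996 nt from the annotated gene end in replicate 1 and 1040 nt in replicate 2, far from the annotated start. Replicate 2 held another MAP2K7 peak of 16.7-fold over the gene start, the window shown above, which replicate 1 lacked. The MAP2Ks of the ERK branch had lower folds. MAP2K1, which encodes MEK1, had 3.36 and 2.88, in peaks of 417 and 119 nt with midpoints 228 and 169 nt from the start. MAP2K2, which encodes MEK2, had the lowest shared fold of the family, 1.70 and 1.55, at a 2-block peak with the same ends in both replicates (chr19:4097322-4099328, minus strand), 24869 nt from the start. Its log10 p was -8.03 and -6.67, and 30.2% and 42.7% of all peaks were more significant. The nearest MAP2K2 start in the RefSeq promoter table lay 3953 nt from this peak. A weak MAP2K2 peak near the annotated gene start (1.99-fold, 172 nt) appeared in replicate 1 alone. MAP2K3, MAP2K4, MAP2K5 and MAP2K6 had no peak.

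MAPK3, which encodes ERK1, had the highest shared fold of the family. It reached 22.6 in replicate 1 (chr16:30123073-30123279, minus strand) and 50 in replicate 2 (chr16:30123073-30123309), with midpoints 44 and 29 nt from the annotated start. By the lower of both folds it ranked 46 among all 2642 shared peaks. It was also the most significant member peak in each table, with log10 p of -20.8 and -55.7. The replicates differed by 1.15 on the log2 scale, more than at 93.4% of all shared peaks. The fold of 50 is 5 times the most frequent fold of at least 10 in its table, 10. Of the 509 replicate 2 peaks at or above 10, 148 (29.1%) were whole multiples of 10 within the same limits.

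MAPK12, which encodes p38 gamma, had 16.2 and 12.2 over its start (chr22:50261520-50261759 and chr22:50261460-50261729, minus strand), with log10 p of -8.84 and -15.1. MAPK11, which encodes p38 beta and lies next to MAPK12 on the same strand, had 7.40 in replicate 1 and 3.12 in replicate 2, toward its annotated end (237 and 711 nt) and 356 nt apart, so it had no shared peak. MAPK7, which encodes ERK5, had nearly equal folds of 5.10 and 4.84 at chr17:19381784-19381963, plus strand, with the same ends in both replicates. That peak lay 4123 nt from the annotated start and 1671 nt from the annotated end. MAPK9, which encodes JNK2, had 3.93 in replicate 2 alone, 72 nt from its start.

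Of the proteins that bind MAP kinases, MAPK8IP3, the JNK scaffold and motor adaptor JIP3, had 5.42 and 3.50 at 1308 and 1367 nt from its annotated end. MAPK1IP1L had 3.49 in replicate 1 alone. MAPK8IP1 and MAPK8IP2, the scaffolds JIP1 and JIP2, and MAP3K7CL had no peak.

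**Figure D3:**
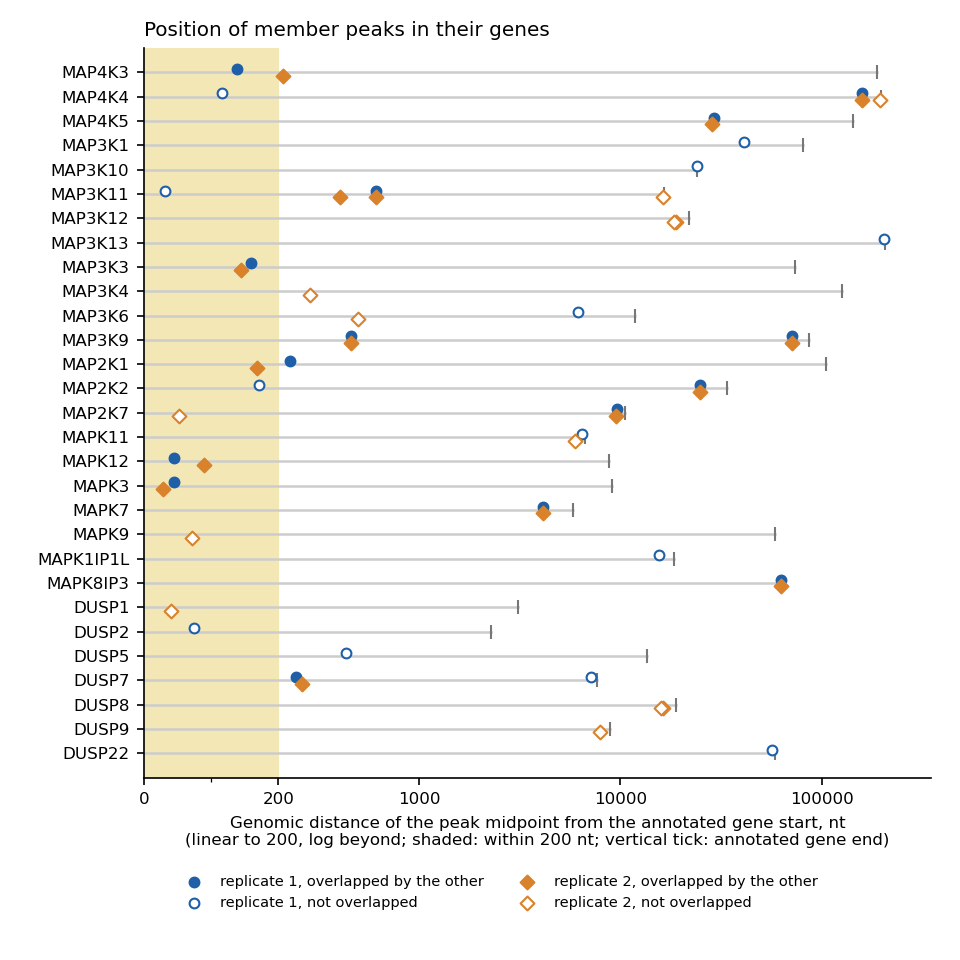
Each row is a member gene with a peak named in the text, drawn from its annotated start (0 nt) to its annotated end (vertical tick), with peak midpoints of IP replicate 1 (circles) and IP replicate 2 (diamonds) at their genomic distance from the start in nt (linear to 200, log scale beyond), filled where the other replicate overlaps. The filled points of MAPK3, MAPK12 and MAP3K3 lie within 200 nt of the start in both replicates, while those of MAP2K7, MAPK7 and MAPK8IP3 lie toward the gene end.

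Among the phosphatases, DUSP7 was the only gene with a shared peak. DUSP7 is a cytoplasmic phosphatase with preference for ERK. It had 9.50 in replicate 1 and 7.94 in replicate 2 at chr3:52056206-52056445 and chr3:52056176-52056445, minus strand, with midpoints 246 and 261 nt from the start and log10 p of -16.5 and -16.1. Another DUSP7 peak, 2.01-fold and 526 nt from the gene end, was in replicate 1 alone. The other typical DUSPs had peaks in a single replicate or none. In replicate 1 alone, DUSP5, a nuclear ERK phosphatase, had 7.93 at 435 nt from its start. DUSP2, a nuclear phosphatase of activated immune cells, had 6.79 in replicate 1 alone, with its peak opening at the first base. The log10 p of DUSP5 and DUSP2 was -3.88 and -6, and 85.3% and 45.1% of that table's peaks were more significant. In replicate 2 alone, DUSP1, the immediate early phosphatase of p38 and JNK, had 4.57 at its start. DUSP9, another cytoplasmic ERK phosphatase, had 4.64 at 937 nt from its end, and DUSP8, a phosphatase of JNK and p38, had peaks of 5.71 and 4.62, 2504 and 2922 nt from its end. DUSP4, DUSP6, DUSP10 and DUSP16 had no peak. Of the 15 other DUSPs, which lack the MAP kinase binding domain, only DUSP22 had a peak, 2.99-fold in replicate 1 alone. The gene table lists 3 pseudogenes of DUSP8, 2 of DUSP5 and 1 of MAP2K1, and the handling of reads shared with such copies is not stated, so these peaks are uncertain to that extent.

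**Figure D4:**
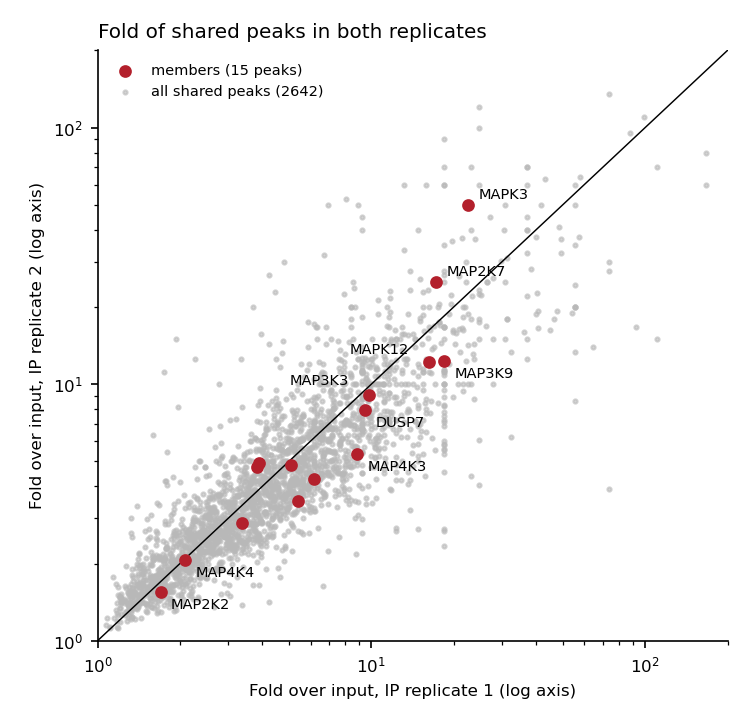
Fold over input in IP replicate 1 (x axis, log scale) and IP replicate 2 (y axis, log scale) for the 15 shared member peaks (red) and all 2642 shared peaks (grey), with the line of equal folds. The members lie within the cloud of all shared peaks, and MAPK3 (22.6 and 50) is the member farthest from the line.

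Set beside all shared peaks, the 15 shared member peaks had a median lower fold of 4.84, against 3.53 for all 2642. Both folds were 4 or more at 9 of 15, against 42.8% of all, and 10 or more at 4 of 15, against 9.35%. Replicate 1 gave the higher fold at 11 of 15, against 55.5% of all shared peaks. The replicates differed by a median of 0.34 in log2 fold for members, a factor of 1.26, and of 0.30 for all shared peaks, a factor of 1.23. All 15 member differences were below 1.28, the value that 95% of all shared peaks stayed under. Across the 15 member peaks, which share their libraries and in MAP3K9 their gene, Spearman's rho between replicates was 0.94, beside 0.88 across all.

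Midpoints of 4 of the 15 shared member peaks (26.7%, Wilson 95% interval 10.9 to 52.0), those of MAPK3, MAPK12, MAP4K3 and MAP3K3, lay within 200 nt of the annotated start in replicate 1, against 23.6% of all shared peaks. That share is near the background. Single tables gave 8 of 28 member peaks in replicate 1, against 22.5% of all, and 8 of 30 in replicate 2, against 19%. MAP2K1, at 228 nt, and DUSP7, at 246 nt, lay just outside this distance in replicate 1, and MAP2K1 lay inside it, at 169 nt, in replicate 2. MAP4K3 lay inside it in replicate 1, at 138 nt, and outside it in replicate 2, at 212 nt. The median lower fold was 10.6 for the 4 peaks near the start and 3.90 for the other 11, against 4.62 and 3.14 for all shared peaks. Only MAP2K7, 1 of 15, lay within 1000 nt of the annotated gene end in replicate 1, against 15.3% of all shared peaks. In replicate 2 the MAP2K7 peak lay 1040 nt from that end. By replicate 1 positions, 10 of 15 lay in neither range, against 1614 of 2639. Peaks of more than 1 block in both replicates, which can cross introns, were those of MAP4K4, MAP2K2 and the second of MAP3K9, 3 of 15 against 31% of all.

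Member peaks that the other replicate overlapped were the more significant ones, with a median log10 p of -8.84 for overlapped and -4.13 for other member peaks of replicate 1, and of -10.5 and -4.76 in replicate 2. With the peaks of replicate 1 cut by significance into 5 equal classes, replicate 2 overlapped 6 of 6 member peaks in the strongest class, against 98.8% of all, and 0 of 6 in the weakest, against 28.7%. With replicate 2 cut likewise, 6 of 6 were overlapped in the strongest class, against 93.2% of all, and 2 of 7 in the weakest, against 23.4%. In all, 15 of 28 member peaks of replicate 1 were overlapped, against 62.6% of all, and 16 of 30 of replicate 2, against 55.9%. Peak lengths were within 1 nt of a multiple of 30 nt for 26 of 28 and 29 of 30 member peaks, and for 89.9% and 89.3% of all peaks. Ends that coincide between replicates, as for MAPK7, MAP2K2 and MAP3K9, therefore need not be exact to single bases. Both outer ends coincided at 3 of 15 shared member peaks, against 270 of all 2642 shared peaks. Whether the ends lie on common steps of 30 nt was not tested.

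**Figure D5:**
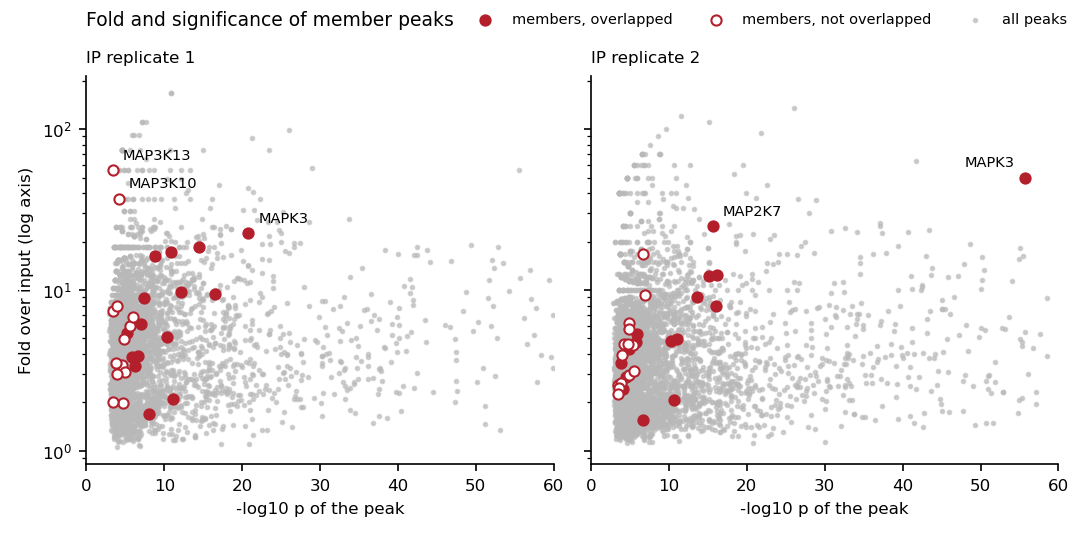
Fold over input (y axis, log scale) against -log10 p for member peaks (red, filled where the other replicate overlaps) and all peaks (grey) of IP replicate 1 (left) and IP replicate 2 (right). MAPK3 combines a high fold with high significance in both, whereas MAP3K13 and MAP3K10 have high folds at weak significance in replicate 1. Beyond the plotted limit of 60 lie 97 and 123 peaks, none of them a member.

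The wider pathway was described with a list of 57 genes upstream and downstream of these kinases, of which 12 (21.1%) carried a shared peak, against 10.5% of all protein-coding genes. Downstream kinases had shared peaks on 5 of 12 genes, RAS and RAF genes on 1 of 6 and other upstream kinases on 2 of 10. Inhibitors had them on 1 of 8, target genes on 3 of 11 and scaffolds and adaptors on 0 of 10. The list was chosen with earlier results of these data known, so these shares only describe it and were not tested. By the lower of both folds, TAOK2, a MAP3K by function, led the list, with 11.1 in replicate 1 and 10.8 in replicate 2, its midpoint 88 nt from the annotated start. SPRED3, an inhibitor of RAS signalling to RAF, had 13 and 8.57. MAPKAPK2, the kinase activated by p38 that regulates cytokine mRNAs, had 6.06 and 5.67. MKNK2, which phosphorylates the cap-binding protein eIF4E, had 15.7 and 4.37, a wide gap between replicates. HRAS had 5.63 and 4.24, with its midpoint 144 nt from the start. None of these folds except those of TAOK2 was at least 10 in both replicates.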

How the data were processed

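Per the labels' protocols, poly(A) RNA of U2OS cells was pulled down with an antibody against m7G, and stranded libraries were made of IP and input. The submitters' processing notes name STAR and GRCh38 and give no version. The peak-calling tool and its parameters were not given in the sources used here, nor was a peak's read count. The authors deposited 1 peak table for each of the 2 IP replicates. Per the file headers, it gives for each peak a p-value, log10 values of p and of the false discovery rate (handled as a score), and a fold enrichment, a linear ratio of IP over input whose scaling is not stated. Replicate 1 reached up to a false discovery rate of 0.0490 and replicate 2 up to 0.0479.

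Blocks were compared on the same strand, an overlap of at least 1 nt counted as the same place, and mutually best overlaps were paired. Peak names were looked up in RefSeq's GRCh38.p14 gene table, within 2000 nt, for 99.9% and 99.8% of peaks and for all member peaks. Distances are genomic and run from a peak's midpoint along its blocks to the annotated start or end of the gene. The promoter table held entries for 62 of the 73 members. With 1 condition and 2 IP replicates no comparison over samples exists, so no test was made. The overlap search was tested on simulated data. Members, roles and lists were chosen with earlier results of these data known. The members with a peak were named, except an item that is counted but not reported here, as were the 5 partner genes with the highest lower fold. Alternatives were stricter overlaps, stricter peaks and each replicate alone. Software was matplotlib 3.10.9, scipy 1.17.1, pandas 2.3.3 and numpy 2.4.6 under Python 3.11.15.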

Additional observations from a re-analysis of the deposited data

How the results depend on the processing

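Among 30 alternative values of the main counts, medians and shares, 19 stayed within the limits set for them (1.5 times for counts, a replicate SD of 0.42 on the log2 scale for folds, the Wilson interval for shares) and 11 did not. Requiring a reciprocal overlap of 50% left 10 of the 14 genes, without MAP2K1, MAP4K3, MAP4K5 and MAPK8IP3, and 8.68% of all protein-coding genes, with a median fold of 7.94 for members and 3.79 for all shared peaks. Midpoints within 100 nt removed MAP4K5. Peaks with a false discovery rate of at most 1e-05 in both tables left 8 genes with 8 peaks and a median fold of 10.6 (3.945 for all), and 4.88% of all protein-coding genes had a shared peak at that setting. A fold of at least 4 in both left 8 genes with 9 peaks and a median of 9.05 (6.25 for all), and 5.20% of all genes had one. With all peaks of a single replicate in place of shared peaks, 23 genes and 28 to 30 peaks counted in each. The share of shared peaks near the gene start was 26.7% and ranged from 26.7% to 46.7% over its alternatives, the highest with a distance of 500 nt (36.0% of all shared peaks). Counting any start listed in the RefSeq tables, a setting chosen after seeing the data, gave 26.7% (26.5% of all). No paired analysis was possible because the results come from no test and input libraries have no values of their own here. Without read counts, the depth behind a peak is unknown, and a missing peak says only that none passed the authors' threshold.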

Other observations

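Promoters of the members were rich in G and C. The median GC content of the 300-base RefSeq promoter windows was 73.7% for the 27 members with any peak that have an entry and 68% for the 35 members without a peak, beside 62.7% for 15843 protein-coding genes. The quartiles were 71.5% and 78% for members with any peak, 55.8% and 74.8% for those without and 54% and 70.3% for all. These are descriptions of the first window listed for each gene, with no test, and GC content was not measured in the peaks themselves. No value was computed for all genes with a peak, so whether the contrast is particular to the members was not tested.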
